A study of Homo sapiens with 4 samples.

Results

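The p53 stress and arrest effectors described here are 7 genes that p53 switches on during stress, each characterised by the p53 peaks at its locus: PLK2, PLK3, GADD45A, ZMAT3, PHLDA3, TRIM22 and TP53INP1. They were taken by name as p53-induced growth and stress genes and are 7 of the 59675 genes placed on chromosomes 1 to 22, X and Y in the RefSeq table. Every peak inside one of these genes or within 10 kb of it was counted as belonging to it, which gave 7 of the 2008 R273H peaks and 7 of the 2059 wildtype peaks.

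The peaks came from chromatin immunoprecipitation with sequencing (ChIP-seq), which maps where a protein sits on DNA, in HCT116, an established human colorectal carcinoma cell line, grown as spheroids in medium with 2 growth factors, EGF and basic FGF, each at 20 ng/ml. Cells labelled p53-R273H, in which an arginine of p53 that touches DNA is replaced by histidine, were set against cells labelled wildtype control. Each genotype had 1 ChIP library made with the p53 antibody DO-1 and 1 input library without antibody, all between passages 13 and 18. How the R273H change was made is not stated in the labels, nor whether a wildtype allele remained, or whether each genotype came from 1 clone. The R273H list was assigned to the R273H ChIP library and the other list to the wildtype ChIP library by their names, because the sample descriptions also pair the wildtype ChIP library with the R273H list. Since each genotype had 1 ChIP library, differences between them are without a replicate check and were not tested. Scores are the authors' own, given separately for each list, so a score or rank in one list is not set against that in the other as a change.

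As background, p53 is a transcription factor that is stabilised by DNA damage and other stresses and binds response elements near its target genes. Arrest of the cell cycle is carried mainly by p21, and the genes described here add kinases, checkpoint proteins, an RNA-binding protein, a brake on AKT signalling and feedback onto p53 itself. R273H is a frequent contact mutation in colorectal cancer, known for weakened binding to such elements. Whether any peak below is bound p53 was not tested.

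In the R273H list 6 of the 7 genes had a peak, and in the wildtype list all 7 did. Over all annotated genes the shares were 2.36% in the R273H list (95% exact binomial interval 2.24 to 2.48, counting error only) and 3.48% in the wildtype list (3.33 to 3.63). At PLK2, PLK3, GADD45A, ZMAT3, PHLDA3 and TRIM22 an R273H peak and a wildtype peak overlapped by at least 1 bp, against 0.903% of all genes. When the overlap had to cover at least 50% of both peaks, or the R273H score had to reach 100, only PLK2, ZMAT3 and TRIM22 remained of the 6. The shares of all genes under these 2 stricter rules were not computed, so this drop is not read as a trait of the genes. TP53INP1 alone had a wildtype peak and no R273H peak, which held for 2.44% of all genes. Among protein-coding genes alone the shares were 3.09% for the R273H list, 4.83% for the wildtype list and 1.13% for overlapping peaks. The genes were named as p53 targets with earlier results of these data known, so their counts are a description.

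**Figure D1:**
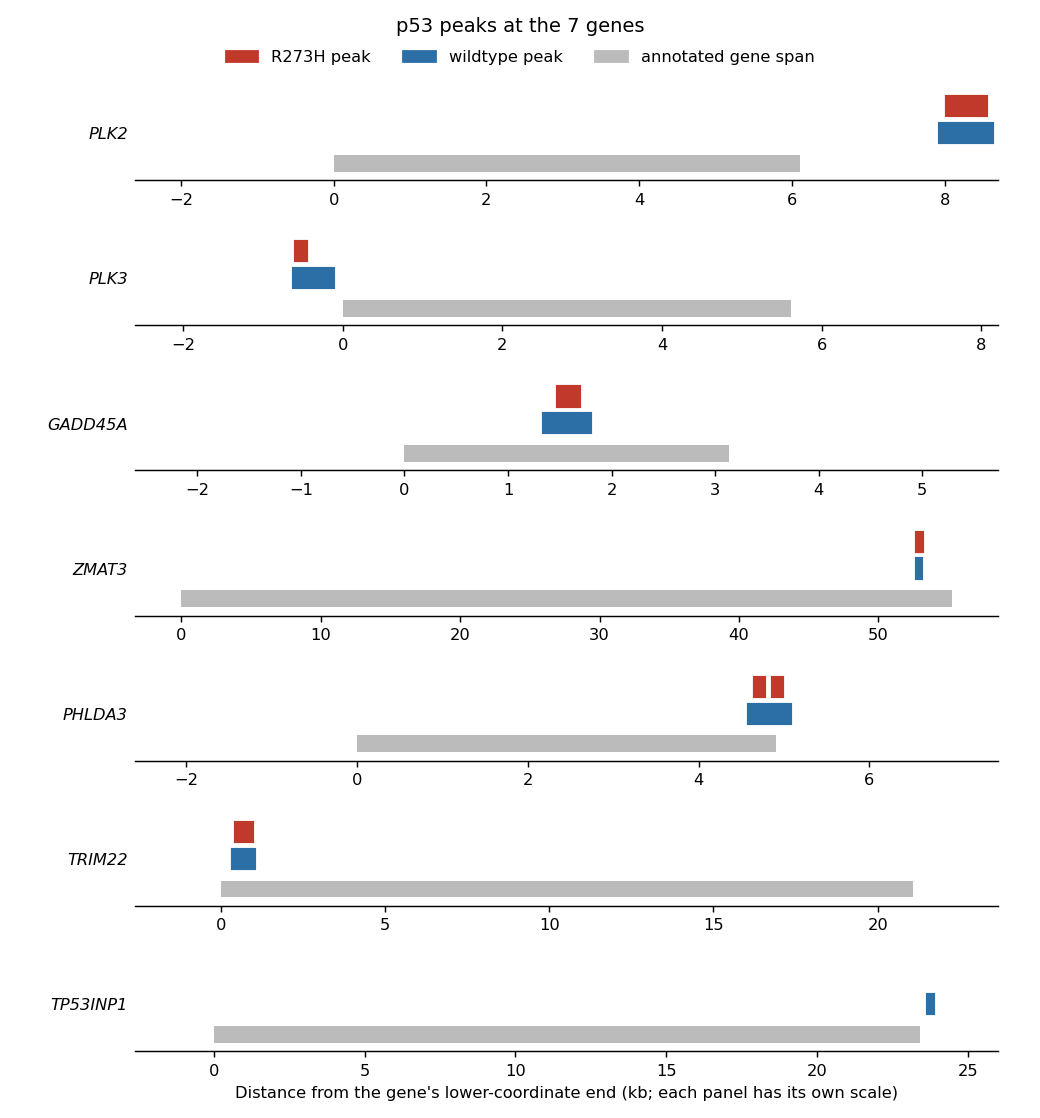
Peaks at each gene, drawn to scale with kb from the gene's lower-coordinate end on the horizontal axis; red bars are R273H peaks, blue bars wildtype peaks and grey bars the annotated gene span, and each panel has its own scale. The peaks lie outside the gene at PLK2, PLK3 and TP53INP1, inside it at GADD45A, ZMAT3 and TRIM22, and at the higher-coordinate end of PHLDA3, where the R273H peak scoring 67.7 is inside the gene and the other R273H peak and the wildtype peak cross the end.

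Reference sequence could be shown for the polo-like kinase genes, whose promoter windows (250 bases before the start site to 50 after, RefSeq, GRCh38.p14) were matched by symbol, as were 2 windows of ZMAT3. GADD45A, PHLDA3, TRIM22 and TP53INP1 had no match there. The bases before the PLK3 start site are shown because the wildtype peak reached into them. PLK3 lies on the plus strand, and the 250 bases at chr1:44800127-44800376 run 5′ to 3′ with the 145 bases under the wildtype peak in capitals.
PLK3: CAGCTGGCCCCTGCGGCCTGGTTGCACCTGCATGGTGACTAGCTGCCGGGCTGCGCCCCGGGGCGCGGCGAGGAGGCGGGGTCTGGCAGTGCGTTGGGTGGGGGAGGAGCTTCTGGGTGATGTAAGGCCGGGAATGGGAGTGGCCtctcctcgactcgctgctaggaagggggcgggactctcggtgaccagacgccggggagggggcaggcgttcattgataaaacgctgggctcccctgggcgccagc

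G and C made up 71.7% of the covered bases and 70.0% of all 250. The window held no match to the p53 half-site consensus, a degenerate pattern that reads the same on both strands, so that 1 scan covers both. Neither ZMAT3 window held one. A stretch of the PLK2 promoter is shown because it held the 1 half-site match among the 4 windows of these genes. The stretch lies on the minus strand at chr5:58460199-58460228. The match, in capitals, is at chr5:58460209-58460218, 123 to 132 bases before the start site.
PLK2: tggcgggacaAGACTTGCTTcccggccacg

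Half-site matches stood in 6.63% of the 35116 promoter windows of this length, and a full site of 2 half-sites at most 13 bases apart in 0.0285%. None of the 4 windows held a full site. The PLK2 match lay outside both PLK2 peaks, 1777 bases from the R273H peak and 1692 from the wildtype peak. A match is a run of letters and does not show a bound site, and the bases under the peaks themselves were not analysed here apart from the PLK3 stretch.

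Polo-like kinases are serine/threonine kinases of the cell division cycle. PLK2 acts in centriole duplication and in the S-phase checkpoint, and PLK3 responds to DNA damage and other stress. PLK2 had the highest-scoring peak of the 7 genes in each list. Its R273H peak, at chr5:58461996-58462537, scored 746 and ranked 54 of 2008. Its wildtype peak, at chr5:58461911-58462618, scored 2135 and ranked 41 of 2059. Both were within the highest 3% of their list, at 2.69% and 1.99% from the top. The R273H peak lay whole within the wildtype peak, and their midpoints were 2 bp apart, 2180.5 and 2178.5 bases upstream of the PLK2 start site. PLK2 spans chr5:58453982-58460086, and no other annotated gene lay within 10 kb of these peaks.

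PLK3 (chr1:44800377-44805990) had its peaks just before the start site. The R273H peak, at chr1:44799777-44799931, scored 52.4, close to the lowest R273H score of 50.0, and ranked 1738 of 2008. The wildtype peak, at chr1:44799749-44800271, scored 415 and ranked 222 of 2059. The R273H peak was 155 bp wide and covered the part of the wildtype peak away from the gene; the wildtype peak was 523 bp wide and ran 340 bp further towards it. Their midpoints lay 523 and 367 bases upstream of the start site. Only the wildtype peak entered the PLK3 promoter window. Of all 35116 promoter windows, 30 were touched by an R273H peak and 65 by a wildtype peak, 0.0854% and 0.185%. The same peaks were within 10 kb of BEST4, DYNLT4 and BTBD19, which lay 5622 bp or more from either peak, so PLK3 was the nearest gene.

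GADD45A encodes a small stress protein that binds the replication clamp PCNA, restrains CDK1 with cyclin B1 and activates the kinase MAP3K4 upstream of p38. A p53 site in one of its introns is a classical example of a p53 response element. The gene spans chr1:67685201-67688334, and the peaks of both lists lay near its middle, without annotation of exons at hand to place them further. The R273H peak, at chr1:67686670-67686892, scored 73.8 and ranked 655 of 2008. The wildtype peak, at chr1:67686542-67687003, scored 283 and ranked 297 of 2059. The R273H peak was 223 bp wide and the wildtype peak 462 bp, with midpoints 8.5 bp apart. No other annotated gene lay within 10 kb.

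ZMAT3, a zinc finger protein that binds RNA and affects the stability and splicing of transcripts, had the smallest difference in width between its peaks. Its R273H peak, at chr3:179069944-179070396, scored 335 and ranked 110 of 2008. Its wildtype peak, at chr3:179069935-179070367, scored 474 and ranked 209 of 2059. This was the 1 gene of the 6 at which the R273H peak was the wider of the pair, at 453 bp against 433 bp in the wildtype list, and ran 29 bp past its partner. ZMAT3 spans chr3:179017223-179072513 and has 2 promoter windows on the minus strand. The peaks lay between them, with midpoints 1639 (R273H) and 1658 (wildtype) bases downstream of the outer start site and 828 and 809 bases upstream of the inner one.

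PHLDA3, a pleckstrin homology domain protein that competes for membrane lipids and so restrains AKT, carried 2 R273H peaks under 1 wildtype peak. The R273H peaks, at chr1:201468922-201469053 and chr1:201469140-201469270, scored 67.7 and 50.9, ranked 796 and 1902 of 2008, and were 86 bp apart. The wildtype peak, at chr1:201468860-201469353, scored 378 and ranked 240 of 2059. It covered both R273H peaks and the gap between them, and crossed the higher-coordinate end of the gene (chr1:201464278-201469188). Of the 437 wildtype peaks with an R273H partner, 11 overlapped more than 1 R273H peak, 2.52%.

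TRIM22 encodes an interferon-induced ubiquitin ligase of the antiviral tripartite motif family that p53 also induces. The R273H peak, at chr11:5690225-5690766, scored 264 and ranked 133 of 2008. The wildtype peak, at chr11:5690143-5690848, scored 615 and ranked 176 of 2059. Their midpoints coincided, with an offset of 0.0 bp, and the R273H peak fell 82 bp short of the wildtype peak on each side. TRIM22 spans chr11:5689790-5710863. The peaks also lay at the lncRNA gene LOC124902620, which overlaps TRIM22, and 5151 bp (R273H) and 5069 bp (wildtype) from TRIM5, so the peak cannot be given to 1 of these genes by position alone.

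TP53INP1, a stress protein that helps kinases such as HIPK2 phosphorylate p53 and takes part in autophagy, had no R273H peak within 10 kb. The nearest R273H peak was 335713 bp away and scored 58.0. The wildtype peak, at chr8:94949617-94949860, scored 88.1, ranked 646 of 2059 and lay 239 bp beyond the higher-coordinate end of the gene (chr8:94925972-94949378). It was 244 bp wide, and it also fell inside the longer gene NDUFAF6. Of the 1493 wildtype peaks scoring below 100, 75 overlapped an R273H peak, 5.02% (3.97 to 6.26), so most wildtype peaks below 100 had no partner. The TP53INP1 peak, at 88.1, scored above the wildtype list's median of 64.9. The share with a partner among peaks close to its own score was not computed.

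**Figure D2:**
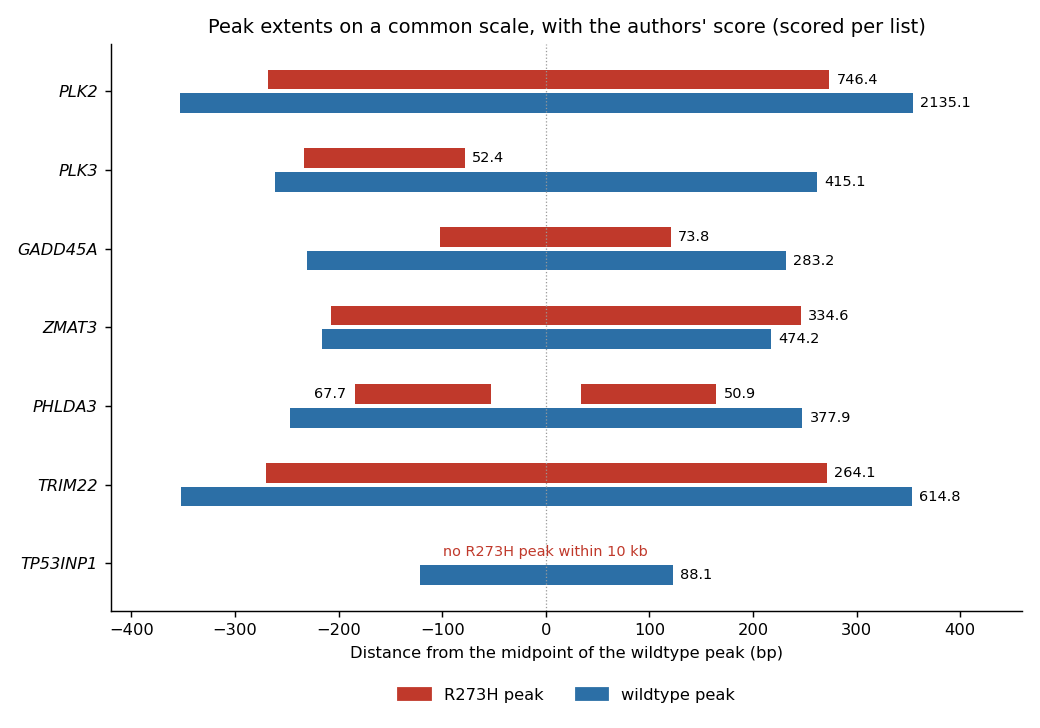
Extent of each peak in bp from the midpoint of the wildtype peak, with red R273H bars above blue wildtype bars and the authors' score beside each bar; scores were given separately per list. R273H peaks lie whole within the wildtype peak at PLK2, PLK3, GADD45A, PHLDA3 and TRIM22, and TP53INP1 has a wildtype peak only.

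The midpoints of overlapping peaks lay closest at PLK2, GADD45A, ZMAT3 and TRIM22, at 19 bp or less, and farther apart at PLK3 and PHLDA3, at 98.5 bp or more. The offset between midpoints ranged from 0.0 to 156 bp over the 7 overlapping pairs, PHLDA3 giving 2, with a median of 19 bp. Over all 448 overlapping pairs of the series the median was 36.75 bp (quartiles 16.5 to 80.125), so the 3 pairs at PLK3 and PHLDA3 lay beyond the upper quartile. The 2 PHLDA3 pairs share a single wildtype peak, whose midpoint lay between the 2 R273H peaks, so their offsets are not separate shifts. The R273H peak lay whole within the wildtype peak in 6 of the 7 pairs (85.7%), beside 58.0% of all pairs. The wildtype peak was the wider in 6 of the 7 pairs (85.7%), beside 77.9% of all pairs. In both counts PHLDA3 gave 2 of the 6 pairs, and 7 pairs are too few to read a difference from these shares. Over all pairs the median width was 399.5 bp for R273H peaks and 527.5 bp for wildtype peaks. R273H peaks at PLK3, GADD45A and PHLDA3, between 131 and 223 bp, were below that R273H median, and those at PLK2, ZMAT3 and TRIM22, between 453 and 542 bp, above it.

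In the R273H list the 6 genes lay on either side of a gap in score. PLK2, ZMAT3 and TRIM22 scored 264 or more and ranked 133 or better, whereas GADD45A, PHLDA3 and PLK3 scored 73.8 or less and ranked 655 or lower. The gap is one among these 6 genes and not in the list. Overlapping R273H peaks whose wildtype partner scored from 200 to 700 had score quartiles of 88.1 and 183, both inside it. In the wildtype list PLK2 stood apart at 2135, the scores of TRIM22, ZMAT3, PLK3, PHLDA3 and GADD45A ran from 615 to 283 in that order, and TP53INP1 came last. R273H scores below 100 were common among overlapping peaks, at 163 of 440 (37.0%). For 103 of those 163 the wildtype partner scored at least 100. Of all R273H peaks below 100, 10.1% (8.66 to 11.7) overlapped a wildtype peak, which GADD45A, PHLDA3 and PLK3 did.

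**Figure D3:**
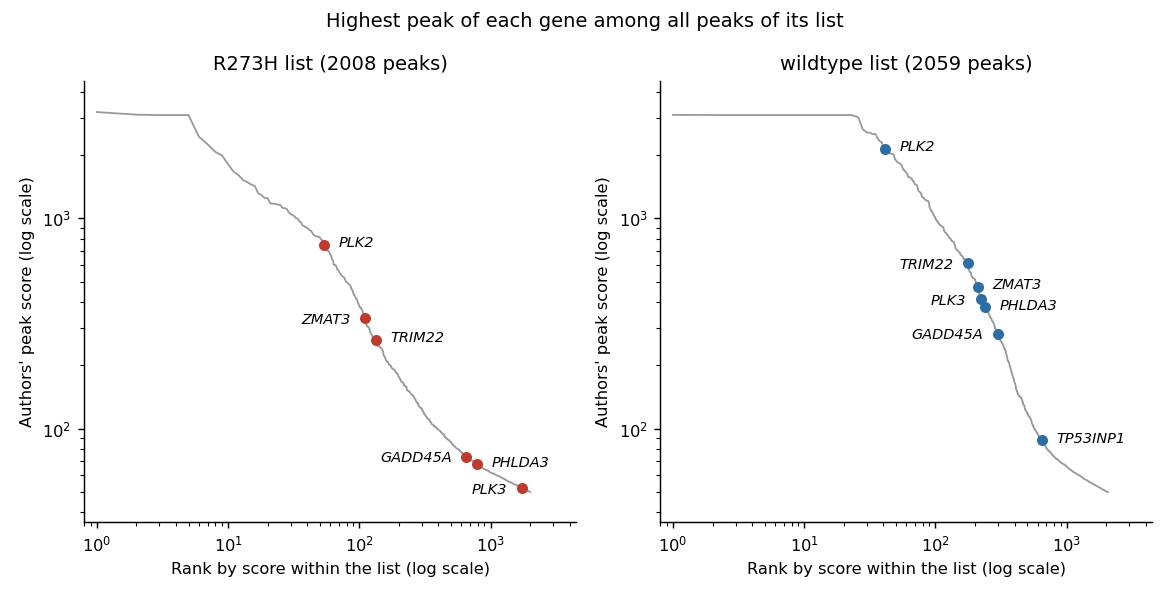
Authors' score against rank within each list, both on log scales, with all 2008 R273H peaks on the left and all 2059 wildtype peaks on the right as grey lines and the highest peak of each gene as points. PLK2, ZMAT3 and TRIM22 rank between 54 and 133 in the R273H list and GADD45A, PHLDA3 and PLK3 between 655 and 1738; in the wildtype list all but TP53INP1 rank between 41 and 297.

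R273H scores at these genes were also set beside those of other overlapping pairs with similar wildtype scores, a comparison chosen after the scores were seen. For each gene the 40 other pairs nearest in wildtype score on a log scale were taken. Where a wildtype peak had several partners, the highest R273H score was used. Pairs at other genes described here could be among the 40, as PLK3 was for ZMAT3 and ZMAT3 for PLK3. Wildtype peaks without an R273H partner were left out, so each place holds among overlapping pairs only. The ZMAT3 R273H peak scored higher than all 40 of its neighbours, whose wildtype scores ran from 401 to 557 and whose median R273H score was 145. TRIM22 had 33 of 40 neighbours below it and 7 above. PLK2 had 13 below and 27 above, GADD45A 10 and 30, and PHLDA3 6 and 34. The PLK3 R273H peak scored below all 40 of its neighbours, whose wildtype scores ran from 350 to 484 and whose median R273H score was 126.

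In the wider band of wildtype scores from 200 to 700, 165 of 218 wildtype peaks (75.7%) had an R273H partner. Among these 165 pairs ZMAT3 stood 2.42% from the top of the R273H scores, TRIM22 7.88%, GADD45A 81.8%, PHLDA3 84.2% and PLK3 98.2%. Wildtype peaks without a partner had no listed R273H score to rank, so these are not places among all 218. The median R273H score in the band was 126, against 156 among the 40 nearest pairs of TRIM22, where the place of TRIM22 was 19.5% from the top. With a band from 100 to 1000 the places of ZMAT3 and TRIM22 were 7.55% and 13.6%. Each place rests on 1 peak in 1 library per genotype, and whether it would recur was not tested.

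**Figure D4:**
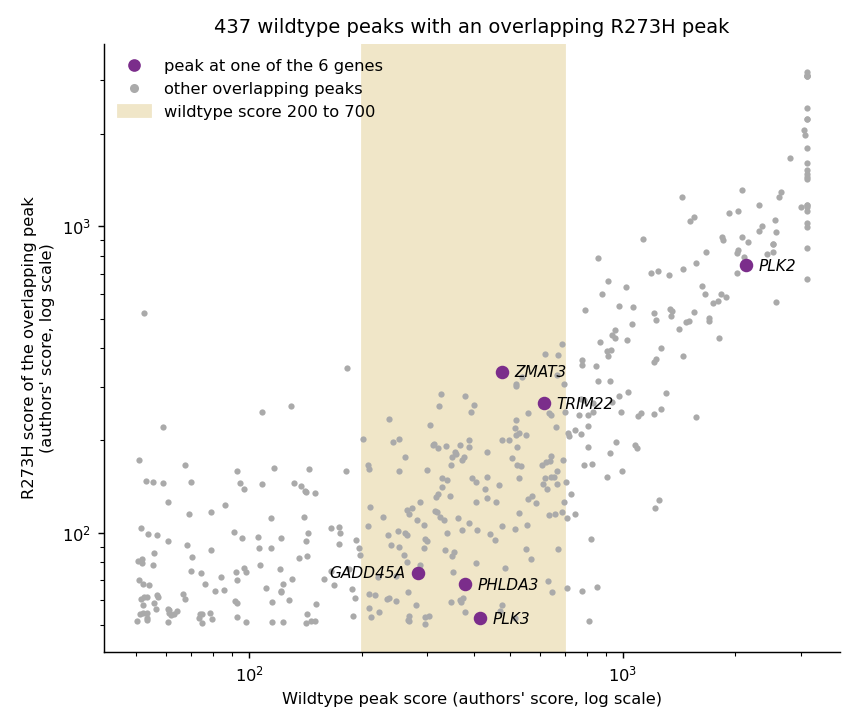
R273H score (vertical) against wildtype score (horizontal) for the 437 wildtype peaks with an overlapping R273H peak, both the authors' scores on log scales; purple points are PLK2, PLK3, GADD45A, ZMAT3, PHLDA3 and TRIM22, grey points all others, and the shaded band spans wildtype scores from 200 to 700. Within the band ZMAT3 lies near the top of the R273H scores and PLK3 near the bottom.

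Beyond the distance that assigned them, the peaks were close to a gene end. All 7 R273H peaks and all 7 wildtype peaks had their midpoint within 2.5 kb of an end of their gene, a limit chosen after the positions were seen. Of the 563 R273H peaks inside or within 10 kb of any protein-coding gene, 132 were this close to an end of one, 23.4% (20.0 to 27.2). For wildtype peaks it was 233 of 891, 26.2% (23.3 to 29.2). GADD45A is 3134 bp long and PHLDA3 4911 bp, so no position inside either gene could fall outside that limit. Of the 7 peaks in each list, 5 R273H peaks and all 7 wildtype peaks also stood alone. Apart from the 2 R273H peaks at PHLDA3, no peak of these genes had another peak of its list within 50 kb, and the nearest was 78927 bp from the PLK2 wildtype peak. Over the whole lists 52.4% of R273H peaks and 65.1% of wildtype peaks stood alone in this sense. Standing alone was thus common in both lists, and 7 peaks are too few to read a difference from these shares.

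Of 16 relatives of the 7 genes, among them PLK1, PLK4, GADD45B and GADD45G, 1 had an R273H peak and 2 had a wildtype peak, counts too small to set apart from the 2.36% and 3.48% of all genes. The 1 in both lists was TRIM5, through the TRIM22 peaks. PHLDA2, an imprinted relative of PHLDA3 that limits placental growth in mice, had a wildtype peak only, with a score of 97.0 at 1940 bp from the gene.

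Of 14 other p53 target genes for arrest and feedback, 1 was assigned peaks, CDKN1A, and it had them in both lists, beside 2.36% (R273H) and 3.48% (wildtype) of all genes. CDKN1A encodes the cell cycle inhibitor p21, and its highest R273H peak scored 1427 and its highest wildtype peak 3106, each above the PLK2 peak of the same list. No listed peak lay inside or within 10 kb of MDM2, PPM1D, CCNG1, BTG2, SESN1, SESN2, SFN, RPRM, GDF15, E2F7, PML, FBXW7 or GTSE1. Peaks farther away were not assigned, and the lower-numbered peaks missing from both lists were not analysed here.

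Of 15 genes whose products the 7 proteins bind or act on, or that act beside p53, none had an R273H peak and 2 had a wildtype peak, beside the same shares of all genes, and nothing is read from counts this small. PCNA, the clamp that GADD45A binds, had its wildtype peak at chr20:5120005-5120304 with a score of 277. TP73, which encodes the p53 relative p73, had one at chr1:3674997-3675344 with a score of 55.7. AKT1, AKT2, MAP3K4, MAPK14, CDK1, CCNB1 and HIPK2 were among the 13 with none inside or within 10 kb.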

How the data were processed

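Per the submitters' processing notes, the tools were Bowtie 1.2.2, MACS and HOMER and the build was hg38. Their roles, the peak threshold, the use of the input and any pooling are not stated in the sources used here. The deposited lists give chromosome, start, end, name and the authors' score per peak, whose scale is not stated. Starts were counted from 0 and are printed from 1. Peak numbers start at 193 (R273H) and 228 (wildtype) and have no gaps after that, so the 192 and 227 lower-numbered peaks were not analysed here. Read depth is unknown from peak lists.

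Gene spans came from a RefSeq table (GRCh38.p14, to which hg38 corresponds) without strand or exons; promoter windows gave strand for PLK2, PLK3 and ZMAT3. All 7 genes and all 45 genes of the other lists matched by symbol; 2 further genes planned for one list are not reported here. Distances are edge to edge. Genes with a peak, overlaps, ranks and exact 95% binomial intervals were computed with Python 3.11.15, pandas 2.3.3 and scipy 1.17.1. Gene assignment and overlap were tested on simulated data, with every planted answer recovered in 20 of 20 runs.

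The 7 genes and the other lists were chosen with earlier results of these data known. All 7 genes are named, as is every gene of the other lists with a peak; those without one that are named serve as examples. The planned protein comparison was not run.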

Additional observations from a re-analysis of the deposited data

How the results depend on the processing

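The counts of the 7 genes with a peak, 6 for R273H and 7 for wildtype, were the same within 2 kb and within 50 kb of the gene. With peaks scoring at least 100 the counts were 3 (PLK2, ZMAT3 and TRIM22) for R273H and 6 for wildtype, and with peaks at or above their own list's median score 5 and 7. Overlapping peaks at 6 genes became 3, the same PLK2, ZMAT3 and TRIM22, when at least 50% of both peaks had to overlap, 5 with peaks at or above each list's median score, and 6 under midpoints within 200 bp, gaps up to 1000 bp or the 2 kb distance. The shares of all genes under these other distance, score and overlap settings were not computed, so the changed counts are a description. The shares of genes with a peak were 3.09% (R273H) and 4.83% (wildtype) of protein-coding genes.

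Percentages from the top depend on which peaks make up the list. Among the 1147 R273H peaks within 100 kb of a gene, the percentages from the top were 4.71 for PLK2, 9.42 for ZMAT3, 11.2 for TRIM22, 44.2 for GADD45A, 49.5 for PHLDA3 and 89.4 for PLK3. Among the 440 R273H peaks that overlap a wildtype peak they were 12.3, 24.1, 28.2, 76.1, 79.3 and 96.1 in the same order. Among the 1584 wildtype peaks within 100 kb of a gene they were 2.59 for PLK2, 10.9 for TRIM22, 12.9 for ZMAT3, 13.7 for PLK3, 14.7 for PHLDA3, 18.2 for GADD45A and 38.9 for TP53INP1. Among the 437 wildtype peaks that overlap an R273H peak they were 9.15, 39.4, 46.5, 48.7, 51.7 and 62.2 for PLK2 to GADD45A in that order. The cause was not tested.

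With wildtype scores from 100 to 1000 in place of 200 to 700, an alternative chosen after seeing the data, as were the 40 nearest pairs, ZMAT3 stood 7.55% from the top instead of 2.42%, TRIM22 13.6% instead of 7.88%, GADD45A 80.0% instead of 81.8%, PHLDA3 82.3% instead of 84.2% and PLK3 96.6% instead of 98.2%. Among the 40 nearest pairs the places were 2.44% for ZMAT3, 19.5% for TRIM22, 75.6% for GADD45A, 85.4% for PHLDA3, and PLK3 scored lowest, below all 40. All these places are among overlapping pairs only. No paired analysis was possible because each genotype had 1 ChIP library. Read depth, and so how far low scores reflect depth, is unknown.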
